A study of Mus musculus with 9 samples.

Results

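The seminal vesicle of the mouse was compared between 13 and 3 months of age by bulk RNA sequencing. The comparison used the 6 libraries of these ages out of 9 in the series, 3 at 13 months and 3 at 3 months, and the 3 libraries at 21 months were kept out of the fit. Both groups are whole seminal vesicle tissue with no treatment named in the labels; age is the labelled difference, and strain, housing and whether each replicate is a separate animal are not given in the sources used here. The p-values therefore measure the spread between these libraries, which may be technical. Members of the comparison are all genes that passed a filter on low counts, 15135 of 53379 in the table. Total counts were 16536160 to 24791943 per library. On the scale of CPM, the count of a gene relative to its library total, 3 counts correspond to 0.121 to 0.181. In bulk tissue, fewer cells of a type and less RNA per cell cannot be told apart.

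The seminal vesicle is an androgen-dependent accessory gland whose luminal cells secrete most of the seminal fluid, over a thin layer of basal cells, a connective tissue core and a thick smooth muscle coat. Cells that divide express a set of genes in S phase (replication, histones) and another from G2 to mitosis (cyclin B, spindle and kinetochore proteins). In resting cells many of the latter are held down through a promoter element called the cell cycle genes homology region (CHR), often next to CCAAT boxes, while many S phase genes carry sites for E2F factors.

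The tissue label was checked against Svs5, a major secreted protein of this gland, which was at 153547, 181943 and 174771 CPM in the 3-month libraries and at 186404, 144865 and 181243 CPM in the 13-month libraries. The ranges of the ages overlapped. Levels here are CPM scaled by the trimmed mean of M values (TMM). The defining prostate genes Pbsn and Tgm4 lay between 0 and 0.512 CPM in all 6 libraries. The first principal component of log2 levels held 41.6% of the variance and separated the ages, from -28.8 to -12.7 at 3 months and from 6.58 to 24.2 at 13 months. Along the second component, with 22.5%, replicate 1 at 13 months stood apart at 30.4, against -11.3 to 4.91 for the other libraries.

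At 13 months 63 genes were higher (0.416% of those tested) and 172 were lower (1.14%), by edgeR's quasi-likelihood test with a Benjamini-Hochberg adjusted p under 0.05. Together the 235 called genes were 1.55% of those tested. Of the lower genes, 145 changed by more than 1 on the log2 scale, as did 41 of the higher ones. In 2649 genes (17.5%) the libraries of the ages did not overlap, and all 235 called genes were among them. The median log2 fold change of all tested genes was 0.01. A fit on all 9 libraries, with 1 shared estimate of the spread, called 73 genes (0.454%), of which 7 were higher and 66 lower, and 72 of the 73 were among the 235. Leaving out 1 library gave from 56 calls (without replicate 1 at 3 months) to 529 (without replicate 1 at 13 months).

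**Figure D1:**
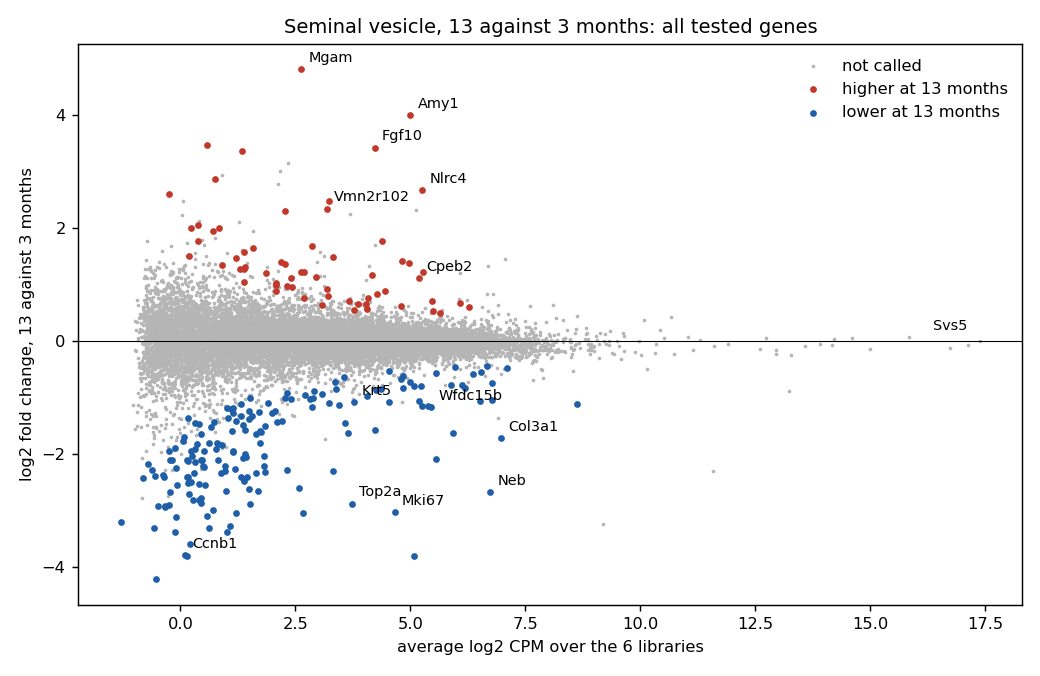
Log2 fold change of 13 against 3 months (vertical axis) against the average log2 CPM over the 6 libraries (horizontal axis) for the 15135 tested genes. The 172 lower genes (blue) lie mainly at low levels, and the 63 higher genes (red) include Mgam, Amy1 and Fgf10 at the top.

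Of the 172 genes that fell, 81 were in lists of cell division. Of 262 tested genes in 12 lists of cell division roles (289 genes listed), 81 fell and 0 rose, against 1.14% and 0.416% of all tested genes. The median log2 fold change was -0.65 over the 262 genes and 0.01 over all tested genes, and 32 of the 262 had a positive value. With a stricter filter, at least 10 counts in each of the 6 libraries, the median was -0.39 and 39 of 196 fell, against 87 of all 13709 tested. Without replicate 1 at 3 months 23 of the 262 genes fell (44 of all 15488 tested). With all 9 libraries 48 of the 262 fell (66 of all 16067 tested). Without replicate 2 at 13 months 56 fell and 1 rose, against 114 and 42 of all 15362 tested.

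The marker of cycling cells Mki67, on chromosome 7 from 135689784 to 135716361 in GRCm38, was at 47.7, 48.5 and 38.9 CPM at 3 months and at 7.35, 6.87 and 2.60 CPM at 13 months. The groups did not overlap. The fall was 3.03 ± 0.29 (log2, SE; adjusted p = 0.00167, edgeR), an 8.16-fold lower level.

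The DNA topoisomerase Top2a was at 29.6, 22.7 and 18.1 CPM at 3 months and at 3.91, 3.74 and 2.05 CPM at 13 months. The groups did not overlap. Its log2 fold change was -2.88 ± 0.25 (edgeR, adjusted p = 0.00141). The mitotic kinase Cdk1 was at 5.11, 4.74 and 3.96 CPM and then at 1.04, 0.738 and 0.827 CPM, a log2 fold change of -2.41 ± 0.23 (edgeR, adjusted p = 0.00149). Calls of Mki67, Top2a and Cdk1 held under all 15 alternatives.

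In the list of the mitotic spindle and its motors 24 of 32 genes fell, with a median of -2.26. These included Cenpf (-3.05), Nusap1 (-3.04), Tpx2 (-2.89), Aspm (-2.62), which organises spindle poles, the motor Kif11 (-2.33) and Prc1 (-2.29), which bundles the central spindle. In the list of the chromosomal passenger complex and cytokinesis 9 of 12 fell (median -1.89), among them the inhibitor of apoptosis Birc5 (-2.56), a subunit of that complex. In the spindle checkpoint and exit list 7 of 15 fell (median -1.25), with the ubiquitin-conjugating enzyme Ube2c at -3.12 and the checkpoint kinase Bub1 at -2.93. The call of Bub1 ended without replicate 1 at 3 months (adjusted p = 0.06). Without that library 9 of 32 spindle genes, 3 of 12 cytokinesis genes and 1 of 15 checkpoint genes fell. With the stricter filter, 17, 7 and 9 genes of these lists were left, of which 11, 5 and 2 fell, with medians of -1.65, -1.65 and -0.24.

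Of the kinetochore and centromere genes 5 of 23 fell (median -0.75), among them the outer kinetochore scaffold Knl1 (-2.48) and Sgo2a (-2.52), which protects cohesin at centromeres. Among cyclins, their kinases and phosphatases 7 of 20 fell (median -0.38), with Ccnb1 at -3.79, Ccna2 at -2.66 and Ccnb2 at -2.11. The cyclin Ccnb1 rested on 34, 45 and 23 counts at 3 months and on 4, 2 and 3 counts at 13 months. Condensin and cohesin loading genes fell in 6 of 15 cases (median -0.63), with the condensin II subunit Ncapg2 at -1.42. Without replicate 1, 2 or 3 at 3 months 1, 2 and 2 of the condensin and cohesin loading genes fell. With the stricter filter the medians were -0.20 for that list and -0.26 for the kinetochore list, where 1 of 14 fell.

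Origin licensing and fork genes fell in 3 of 39 cases, with a median of -0.41 and 1 positive value. The 3 were the checkpoint mediator Clspn (-3.59), the DNA methylation cofactor Uhrf1 (-2.21) and the polymerase subunit Pole (-1.59). Calls of all 3 ended without replicate 1 at 3 months (edgeR, adjusted p = 0.0531, 0.0557 and 0.101). Those of Uhrf1 and Pole also ended without replicate 3 at 13 months (edgeR, adjusted p = 0.0519 and 0.0583), and that of Pole without replicate 3 at 3 months (edgeR, adjusted p = 0.0707). Of 10 genes of nucleotide supply none passed the test; Tk1 was at -1.59 (edgeR, adjusted p = 0.0646). Homologous recombination genes fell in 3 of 23 cases (median -0.60), with Brca1 at -1.97, whose call ended in 4 alternatives (adjusted p up to 0.093). None of the 23 fell when replicate 1 or 3 at 3 months, or replicate 2 or 3 at 13 months, was left out. The difference in frequency between the mitotic and S phase lists was not tested.

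Of 52 tested genes in the list of replication-dependent histones 14 fell (median -0.51), and Hist1h2ai, which the list does not hold, fell as well (-1.46). Leaving out 1 library gave 3 (without replicate 1 at 3 months) to 16 falls in the list, with 1 rise without replicate 2 at 13 months. With all 9 libraries 5 of 52 fell, and with the stricter filter 5 of 39 (median -0.35). The linker histone Hist1h1b was at 4.85, 3.68 and 4.08 CPM at 3 months and at 1.09, 1.199 and 0.866 CPM at 13 months. These groups did not overlap, and the log2 fold change was -2.0 ± 0.22 (edgeR, adjusted p = 0.0027). Histone genes are near-identical copies, so that reads may be split or shared between them.

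Among cell cycle transcription factors 3 of 14 fell (median -0.25), including E2f2 (-1.82), whose call ended in 9 of 15 alternatives; without replicate 1 or 2 at 3 months none of the 14 fell. Foxm1, an activator of mitotic genes, was at -1.69 (edgeR, adjusted p = 0.158) and E2f1 at -0.98 (edgeR, adjusted p = 0.423), so that neither passed the test. None of 7 inhibitors of cyclin-dependent kinases passed; Cdkn1a was at 0.46 ± 0.32 and Cdkn1b at -0.08 ± 0.09. Cdkn2a, the source of p16, was set aside by the filter with 4, 2 and 1 counts at 3 months and 35, 4 and 0 counts at 13 months.

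**Figure D2:**
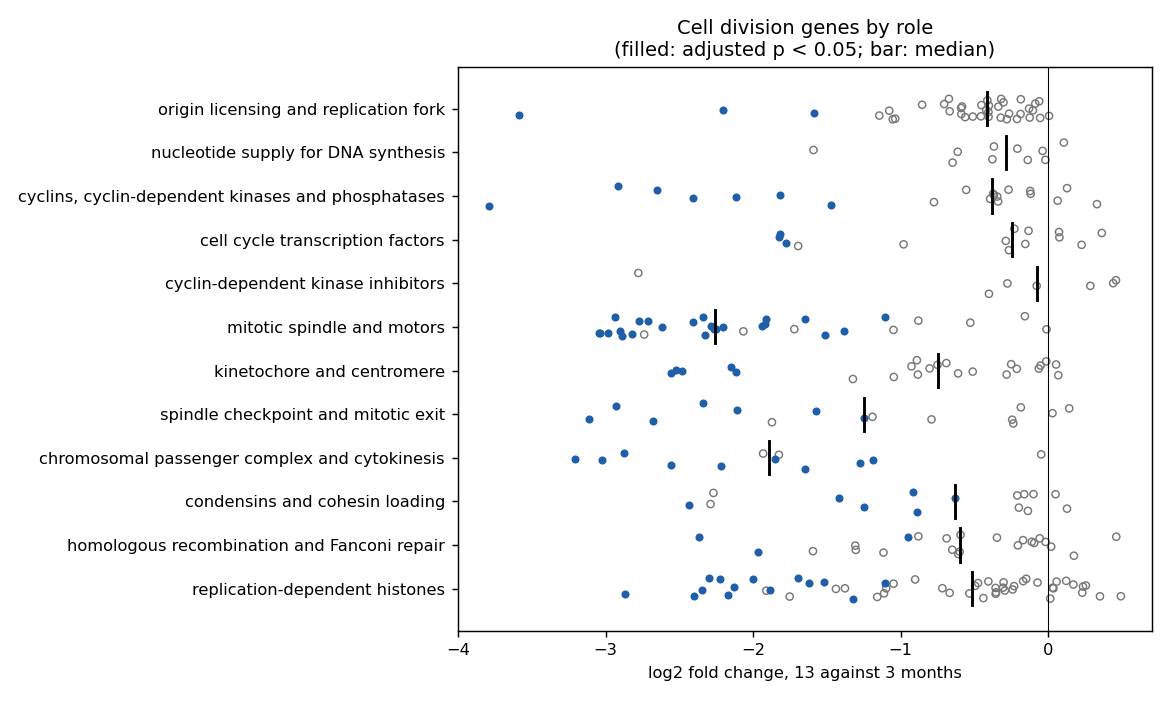
Log2 fold change of 13 against 3 months (horizontal axis) for each tested gene of the 12 cell division lists (rows), with filled points for genes past the test and a bar at the median. The spindle list has its median at -2.26, and nucleotide supply has no filled point.

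The promoters of the 6 genes of smallest p in the lists of spindle, kinetochore, checkpoint, cytokinesis and cyclins, called mitotic lists here, are shown, because these genes fell together and this gene class is known for shared promoter elements. The windows run from 250 bases before to 50 bases after the RefSeq start, in GRCm38.p6, and are printed 5′ to 3′ on the gene's strand. Capitals mark the CHR letters TTTGAA, also taken with TTCGAA as a variant, the CCAAT box and the E2F letters, each searched on both strands. The E2F search took TTCCCGC and, as further forms, each of TTCGCGC, then TTGCCGC, and lastly TTGGCGC, and matches of different motifs may overlap. In 5 of the 6 windows the first part of the 50 bases after the start lies in an annotated transcript of the gene. In the Mki67 window the RefSeq start lies upstream of the annotated gene span given above.
Nusap1, chr2:119618048-119618347, plus strand: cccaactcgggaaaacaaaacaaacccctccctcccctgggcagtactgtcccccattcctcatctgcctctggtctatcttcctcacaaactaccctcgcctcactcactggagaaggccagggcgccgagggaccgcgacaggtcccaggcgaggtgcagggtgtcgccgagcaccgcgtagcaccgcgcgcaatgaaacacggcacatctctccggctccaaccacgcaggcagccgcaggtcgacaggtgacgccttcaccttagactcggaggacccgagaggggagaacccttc
Top2a, chr11:99024140-99024439, minus strand: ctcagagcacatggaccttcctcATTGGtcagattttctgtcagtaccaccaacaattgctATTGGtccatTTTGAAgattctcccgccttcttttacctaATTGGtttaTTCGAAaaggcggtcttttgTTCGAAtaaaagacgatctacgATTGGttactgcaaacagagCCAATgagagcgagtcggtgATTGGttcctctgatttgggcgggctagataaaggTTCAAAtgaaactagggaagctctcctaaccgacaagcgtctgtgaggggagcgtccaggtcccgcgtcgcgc
Cdk1, chr10:69352863-69353162, minus strand: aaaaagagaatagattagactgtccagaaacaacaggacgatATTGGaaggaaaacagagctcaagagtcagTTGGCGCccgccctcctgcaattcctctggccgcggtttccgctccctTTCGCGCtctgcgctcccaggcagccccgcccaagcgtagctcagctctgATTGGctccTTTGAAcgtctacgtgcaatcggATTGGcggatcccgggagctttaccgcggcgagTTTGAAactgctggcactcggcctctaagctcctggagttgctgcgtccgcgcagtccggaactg
Prc1, chr7:80294201-80294500, plus strand: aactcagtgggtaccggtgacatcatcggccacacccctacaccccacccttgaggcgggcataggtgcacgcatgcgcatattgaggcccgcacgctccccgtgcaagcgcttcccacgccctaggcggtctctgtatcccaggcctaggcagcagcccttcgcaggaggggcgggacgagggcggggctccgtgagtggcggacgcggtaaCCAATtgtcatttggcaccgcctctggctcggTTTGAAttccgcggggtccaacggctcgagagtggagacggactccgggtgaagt
Mki67, chr7:135716330-135716629, minus strand: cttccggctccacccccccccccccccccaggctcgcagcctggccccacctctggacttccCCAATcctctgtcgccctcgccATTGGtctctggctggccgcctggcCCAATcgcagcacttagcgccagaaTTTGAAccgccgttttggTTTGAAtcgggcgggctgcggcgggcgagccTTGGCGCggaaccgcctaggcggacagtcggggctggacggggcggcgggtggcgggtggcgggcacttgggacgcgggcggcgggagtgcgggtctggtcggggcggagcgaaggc
Aspm, chr1:139454523-139454822, plus strand: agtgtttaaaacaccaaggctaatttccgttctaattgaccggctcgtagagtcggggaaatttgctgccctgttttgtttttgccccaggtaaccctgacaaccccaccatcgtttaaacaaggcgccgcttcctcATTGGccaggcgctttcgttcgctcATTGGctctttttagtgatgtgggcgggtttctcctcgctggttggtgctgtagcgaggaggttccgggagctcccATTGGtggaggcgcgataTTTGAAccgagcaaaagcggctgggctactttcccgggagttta

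The Top2a window held 4 CHR matches and 6 CCAAT matches, Cdk1 2 and 3, Mki67 2 and 3, Aspm 1 and 3, and Prc1 1 and 1. In the Nusap1 window none of these letters was found. A CHR match was present in 35 of the 46 lower mitotic genes with a RefSeq promoter (76.1%), in 14% of the 10415 tested genes with one and in 19.4% of all 27025 genes in the promoter table. Both CHR and CCAAT were present in 65.2% of those lower mitotic genes and in 5.92% of tested genes. Of the 29 lower genes of the other 7 division lists 11 matched a RefSeq promoter by symbol. None of the 14 lower histone genes matched one under the symbols used here, and the shares that follow leave them out. Among these 11 the E2F letters were found in 9 (81.8%), against 16.9% of tested genes and 17.4% of the lower mitotic genes. A CHR match was found in 5 of the 11 (45.5%) and a CCAAT match in 8 (72.7%). CCAAT was found in 76.1% of the lower mitotic genes and in 38.5% of tested genes. Lower genes outside the division lists held CHR in 22.6% and CCAAT in 50% of promoters. Higher genes held a CHR match in 10 of 46 promoters (21.7%). Mitotic genes are a class known for shared promoter elements, and members of these lists that did not fall were not compared. The shares therefore do not set the genes that fell apart from their lists. The matches describe letters in a window and show no binding.

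Of the genes that fell, 91 were in none of the 12 cell division lists, although some of them have roles in division. The mitotic kinase Nek2 (-3.39 ± 0.26, edgeR, adjusted p = 0.00108) was among these. Nebulin (Neb), a giant actin-binding protein known from skeletal muscle thin filaments, was at 218, 157 and 180 CPM at 3 months and at 42.2, 25.3 and 19.9 CPM at 13 months. The groups were far apart. Its log2 fold change was -2.67 ± 0.25 (edgeR, adjusted p = 0.00149), and the call held under all 15 alternatives. Titin (Ttn) also fell, by 1.81, though its call ended in 5 alternatives, namely all 9 libraries, each one without a 3-month library and without replicate 2 at 13 months (adjusted p up to 0.841 over the alternatives). The other 6 tested skeletal muscle genes did not pass the test; the list's median was 0.11, with Acta1 at 0.22 and Ckm at 0.37.

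The secretory protease inhibitor gene Wfdc15b, of the whey acidic protein family, was at 66.8, 56.8 and 58.4 CPM at 3 months and at 27.4, 25.3 and 27.8 CPM at 13 months. Libraries of each age lay close together and apart from the other age. It fell by 1.18 ± 0.10 on the log2 scale (edgeR, adjusted p = 0.00141) and stayed called under all 15 alternatives. The amino acid transporter Slc6a14, named after its values were seen, fell by 1.62 ± 0.17 (edgeR, adjusted p = 0.00204). Cxxc4, an inhibitor of Wnt signalling, was at -3.27 ± 0.30 (edgeR, adjusted p = 0.00149), and its call ended in the fit on all 9 libraries (adjusted p = 0.326).

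Changes above 3 on the log2 scale were found in 5 of the 63 genes that rose, namely Mgam, Amy1, Tfap2e, Fgf10 and Gm16263. Fgf10, a growth factor that stroma sends to epithelium during budding of the accessory glands, lies on chromosome 13 from 118669791 to 118792115. It was at 3.59, 3.49 and 2.25 CPM at 3 months and at 36.5, 46.1 and 18.5 CPM at 13 months. Every 13-month library exceeded every 3-month library, although the 13-month values were spread widely. The log2 fold change was 3.42 ± 0.33 (edgeR, adjusted p = 0.00168), and the call held under all 15 alternatives. The noncoding gene Gm16263 overlaps Fgf10 on the opposite strand and rose by 3.37 ± 0.35 (edgeR, adjusted p = 0.00204); reads of the pair cannot be told apart without the strand setting. The receptor Fgfr2 was at 0.08 ± 0.19 and did not pass the test (edgeR, adjusted p = 0.908).

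A pair of starch-digesting enzymes rose. The alpha-amylase Amy1 was at 2.98, 4.18 and 4.08 CPM at 3 months and at 82.2, 75.7 and 21.3 CPM at 13 months. Replicate 3 was the lowest 13-month library and still exceeded all 3-month libraries. The log2 fold change was 4.0 ± 0.47 (edgeR, adjusted p = 0.00321), called under all 15 alternatives. Amylase genes are near-identical copies, and Amy1 shares exon sequence on the same strand with Rnpc3, which was at 0.26 ± 0.13 (edgeR, adjusted p = 0.486).

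The maltase-glucoamylase Mgam was at 0.455, 0.437 and 0.305 CPM at 3 months, from 9, 7 and 5 counts, and at 21.2, 9.22 and 4.21 CPM at 13 months. The ages did not overlap, and the 13-month libraries differed widely among themselves. The rise was 4.81 ± 0.67 (edgeR, adjusted p = 0.00776). Its call ended under limma-voom, with all 9 libraries and without replicate 1 at 3 months, with adjusted p up to 0.111.

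The inflammasome receptor gene Nlrc4 was at 10.9, 10.6 and 9.26 CPM and then at 100.1, 57.1 and 40.4 CPM. The 3-month values were tight and the 13-month values wide, without overlap. The log2 fold change was 2.68 ± 0.29 (edgeR, adjusted p = 0.00256). Rarres1, a retinoid-responsive gene, rose by 2.48 ± 0.22 (edgeR, adjusted p = 0.00141), and the glutamate transporter Slc1a1 by 1.43 ± 0.17 (edgeR, adjusted p = 0.00321). Each of the 3 calls ended only in the fit on all 9 libraries (adjusted p = 0.174, 0.0916 and 0.07). The translation regulator Cpeb2 rose by 1.12 ± 0.14 (edgeR, adjusted p = 0.00467) and was called under all 15 alternatives.

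The vomeronasal receptor gene Vmn2r102 was at 2.88, 3.12 and 2.68 CPM at 3 months and at 15.6, 12.2 and 16.3 CPM at 13 months. The groups did not overlap. The rise was 2.34 ± 0.16 (edgeR, adjusted p = 0.000819). Its neighbours on chromosome 17, Vmn2r103 (1.57) and the pseudogene Vmn2r-ps122 (2.0), rose too. These are related sequences, and reads may be shared between them. The call of Vmn2r102 ended in the fit on all 9 libraries (adjusted p = 0.0525).

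**Figure D3:**
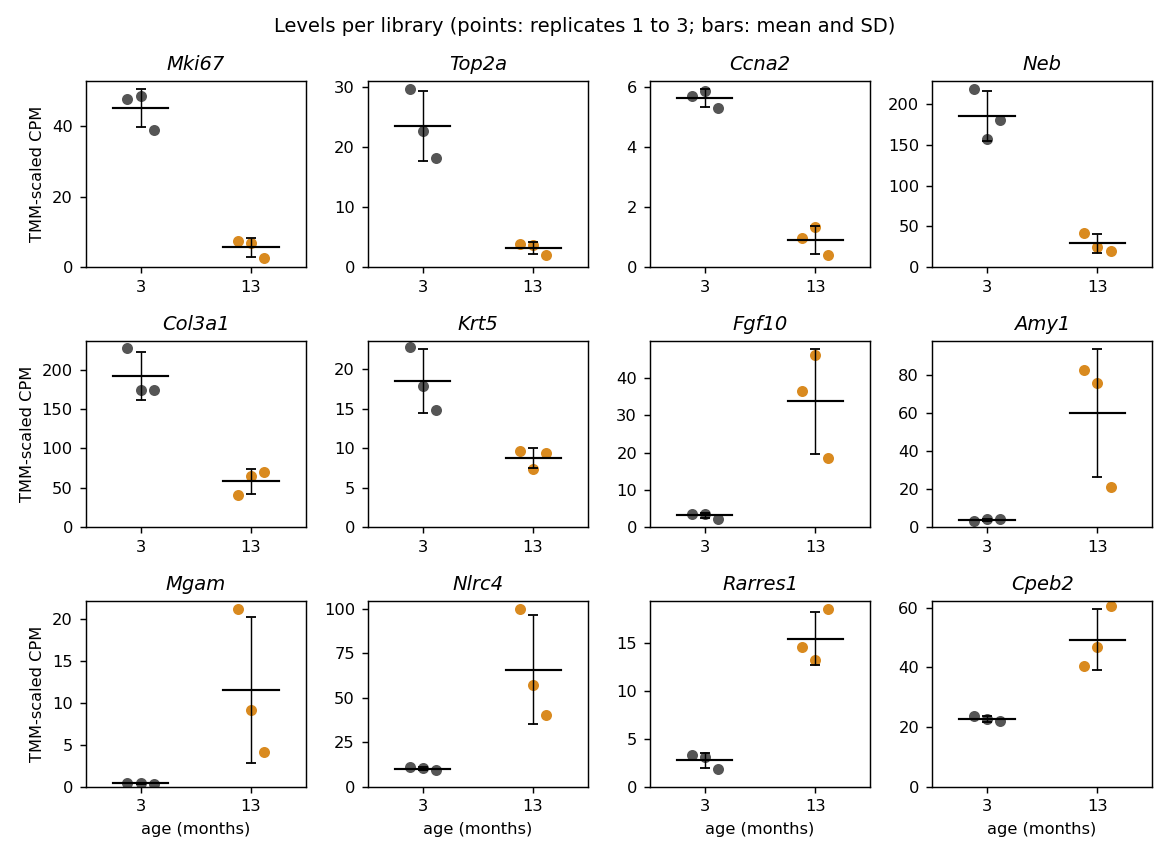
TMM-scaled CPM (vertical axes, from 0) of 12 called genes in each library at 3 and 13 months (horizontal axes); points are replicates 1 to 3, and bars give the mean and SD (n = 3). In every panel the points of the ages do not overlap, and Fgf10, Amy1, Mgam and Nlrc4 spread widely at 13 months.

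No androgen-responsive gene passed the test. Of the tested secretory protein genes 12.5% passed, 1 in each direction, against 1.55% of all tested genes. With all 9 libraries these shares were 6.25% and 0.454%. Of 16 tested secretory protein genes (25 listed) 1 rose, Sval2 (1.22 ± 0.16, edgeR, adjusted p = 0.00608; 0.49 with all 9 libraries), and 1 fell, Wfdc15b, with a median of -0.06. The summed level of the list was 610680 to 643072 CPM at 3 months and 522801 to 694536 CPM at 13 months, which overlapped. None of 24 androgen-responsive genes passed (median 0.02).

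Basal keratins were lower. Of 13 tested basal epithelium genes 3 fell and 0 rose (median -0.35), against 1.14% and 0.416% of all tested genes. The 3 were Krt5 (-1.08), Krt14 (-0.94) and Krt15 (-2.03). Krt5 was at 22.9, 17.8 and 14.9 CPM at 3 months and at 9.69, 7.33 and 9.33 CPM at 13 months, without overlap. The basal regulator Trp63 was at 15.4, 16.54 and 15.96 CPM and then at 11.8, 16.51 and 17.01 CPM, and did not pass the test (-0.08 ± 0.14, edgeR, adjusted p = 0.882). Without replicate 1 at 3 months none of the 3 keratin calls held, and those of Krt5 and Krt15 also ended without replicate 2 at either age; adjusted p over the alternatives reached 0.198 for Krt5, 0.0606 for Krt14 and 0.839 for Krt15. With all 9 libraries the calls of Krt5 and Krt15 ended, and 1 of the 13 genes fell. The call of Krt15 also ended without replicate 3 at 3 months. None of 20 luminal genes passed (median -0.19), and Krt19 was at -1.36 (edgeR, adjusted p = 0.0591). Without overlap of the ages, 12 of the 20 luminal and 8 of the 13 basal genes were lower, and 1 luminal gene was higher. Over all 15135 tested genes 1405 were lower and 1244 higher without overlap. Summed luminal genes were at 2333 to 2489 CPM at 3 months and at 1781 to 2123 CPM at 13 months. Summed basal genes were at 374 to 395 CPM and then at 301 to 379 CPM, which overlapped.

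Of 63 tested extracellular matrix genes 10 fell and 0 rose (median -0.31), against 1.14% and 0.416% of all tested genes. The falls numbered 3 without replicate 1 or 2 at 3 months, 5 without replicate 3 at 3 months, 7 and 6 without replicates 2 and 3 at 13 months, 3 with scaling by library totals and 4 of 60 with the stricter filter. The fibrillar collagen Col3a1 was at 227, 174 and 174 CPM at 3 months and at 40.2, 64.7 and 69.9 CPM at 13 months. The ages did not overlap, and replicate 1 was lowest at 13 months. It fell by 1.72 ± 0.20 on the log2 scale (edgeR, adjusted p = 0.0029). The metalloproteinase inhibitor Timp1 was at -2.30 and the laminin chain Lama2 at -0.77. The calls of Col3a1, Timp1 and Lama2 ended only in the fit on all 9 libraries, where none of the 63 genes was called.

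Replicate 1 at 13 months was low in stromal genes. The summed level of 22 fibroblast genes was 499 CPM in that library, 767 and 816 CPM in the other 13-month libraries and 957 to 1033 CPM at 3 months. Smooth muscle genes summed to 3621 CPM in that library, to 6385 and 7246 CPM in the other 13-month libraries and to between 4061 and 5538 CPM at 3 months. Without it, 529 of 15464 tested genes were called (3.42%), 235 higher and 294 lower. The matrix list then had a median of -0.06 with 12 falls and 2 rises. Of 21 smooth muscle genes 8 were then higher (median 0.55), where none passed with all 6 libraries (median 0.31, with 21 positive values).

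Immune genes were mostly below the test's threshold. Of 17 tested T and NK cell genes (33 listed) 2 rose, against 0.416% of all tested genes, the killer cell protease Gzma (1.99) and the interleukin receptor Il7r (2.06); neither was called by limma-voom, without any one of the 3-month libraries or without replicate 2 at 13 months (adjusted p over the alternatives up to 0.136 for Gzma and 0.156 for Il7r). Both lay between 0.305 and 0.792 CPM at 3 months. The median of the 17 was 0.91, but with the stricter filter 5 were left, with a median of 0.21 and 0 called. None of 10 tested B and plasma cell genes (26 listed) passed (median 0.78). With the stricter filter 4 of them were left, with a median of 0.34 and 0 called. The summed level of the list was 189 to 239 CPM at 3 months and 217 to 294 CPM at 13 months, which overlapped. The antibody light chain Igkc was at 0.556, 2.06 and 0.244 CPM at 3 months and at 13.97, 4.38 and 4.61 CPM at 13 months. All 13-month values of Igkc were higher, and the adjusted p was 0.0566 (edgeR). None of 28 macrophage and dendritic genes passed (median 0.18), nor any of 8 MHC class II genes (median 0.39, 8 positive), and 1 of 18 chemokine and cytokine genes rose, the chemokine Ccl8 (2.61), whose call ended in 5 alternatives (adjusted p up to 0.096).

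Besides Fgf10, Tgfb3 (0.53) and the activin inhibitor Fst (1.23) rose among 25 TGF-beta, activin and BMP genes. The Wnt antagonist Sfrp4 (-1.94) fell among 30 Wnt genes, and the IGF-binding protein Igfbp5 (-0.83) fell among 18 genes of the IGF axis. Among all tested genes 0.416% rose and 1.14% fell. Single calls in the Wnt and IGF lists are therefore no result about those lists. The calls of Tgfb3, Fst and Sfrp4 ended in 7, 9 and 8 alternatives, and that of Igfbp5 with all 9 libraries (adjusted p = 0.0781). Igf1 was at -0.65 ± 0.31 and did not pass (edgeR, adjusted p = 0.432). No gene of the lists of cell junctions, ion transport, unfolded protein response, respiratory chain (median -0.17, 4 of 46 positive), ribosomal proteins, interferon response, complement, circadian clock (median 0.20) or p53 targets (median 0.12) passed the test.

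**Figure D4:**
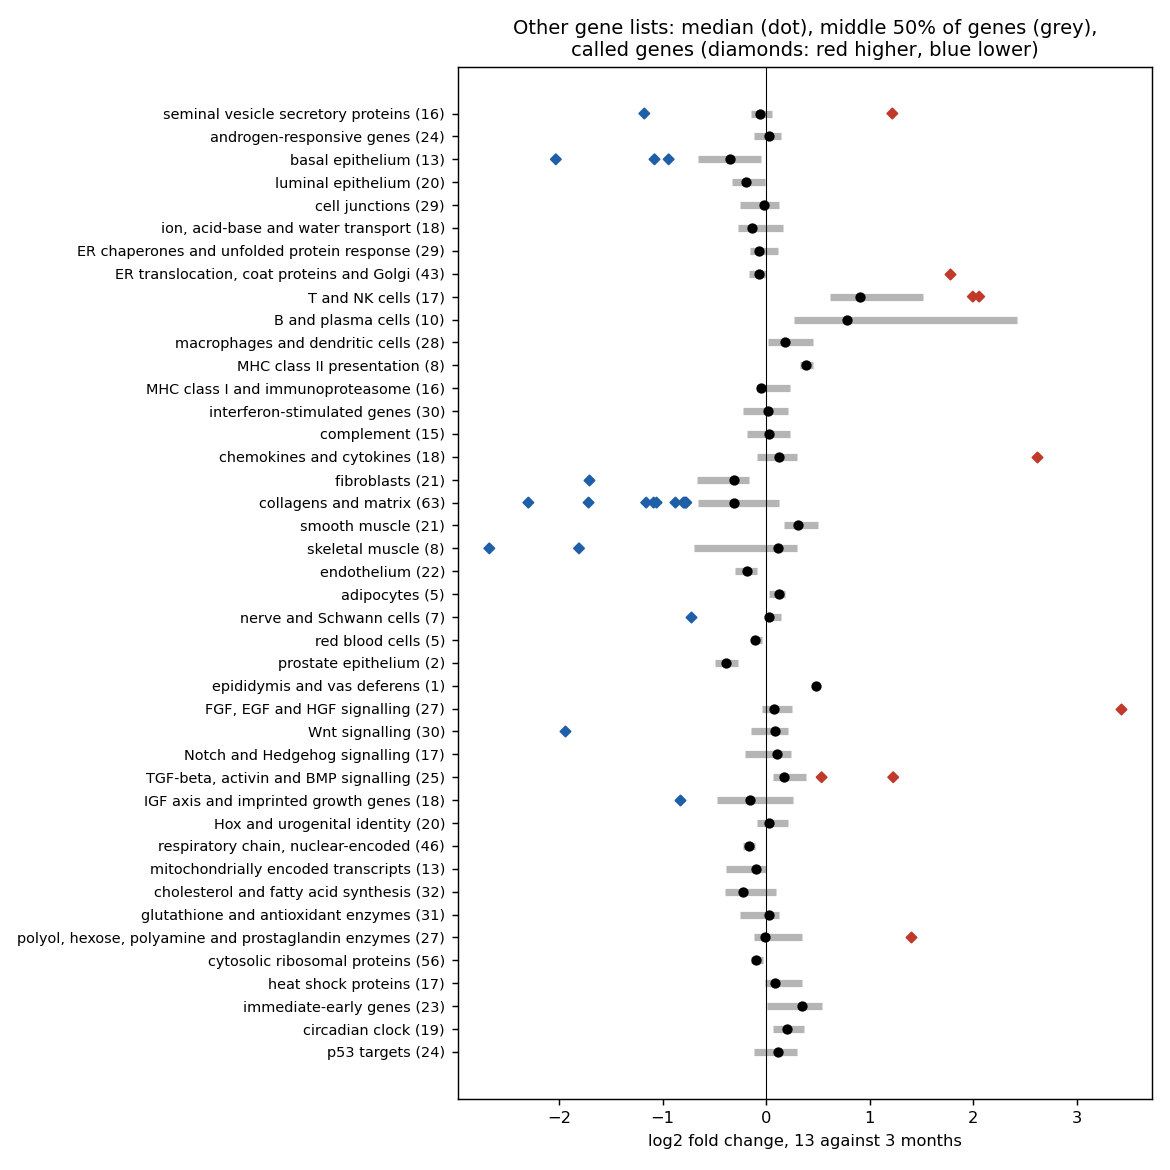
Log2 fold change of 13 against 3 months (horizontal axis) for gene lists outside cell division (rows, tested genes in brackets), with the median (black dot), the middle 50% of genes (grey) and called genes (diamonds, red higher, blue lower). Medians of most lists lie near 0, T and NK cells are at 0.91, and the matrix list holds 10 lower diamonds.

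Of 234 called genes with a position, 42 had another called gene of the same direction within 200 kb, 27 of them outside the histone genes. Among all tested genes 8.18% had a called gene of either direction in that window, a wider count than that of the same direction. The group of H60b (-3.32), Raet1d (-2.40) and Gm5421 (-1.44) on chromosome 10 fell together; H60b and Raet1d encode ligands of an activating NK cell receptor and share exon sequence with Raet1e.

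Several transcripts related to ribosomal RNA were lower at 13 months, and they were chosen after their values were seen. Gm42418, on chromosome 17 from 39846958 to 39848788, overlaps the annotated ribosomal RNA CT010467.1. It was at 8130, 3840 and 3412 CPM at 3 months and at 1882, 860 and 360 CPM at 13 months. Lars2 was at 1969, 681 and 506 CPM and then at 231, 77.7 and 24.4 CPM. Replicate 1 at 3 months was highest for both, and the ages did not overlap, though neither passed the test (edgeR, adjusted p = 0.0745 and 0.0749). Replicate 1 at 3 months was also highest, without overlap of the ages, for CT010467.1 (-1.57), Gm15564 (-3.80) and Mir6236 (-2.09), which passed the test. The neighbouring noncoding gene Gm26917, on chromosome 17 from 39843013 to 39846341, was at 1367, 1364 and 1475 CPM at 3 months and at 1660, 2202 and 1770 CPM at 13 months. It was higher at 13 months without overlap and did not pass the test (0.42 ± 0.13, edgeR, adjusted p = 0.209). Rn7sk was at 3722 to 4085 CPM at 3 months and at 3700 to 3799 CPM at 13 months, and the part of these transcripts in the falls of other genes was not tested.

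**Figure D5:**
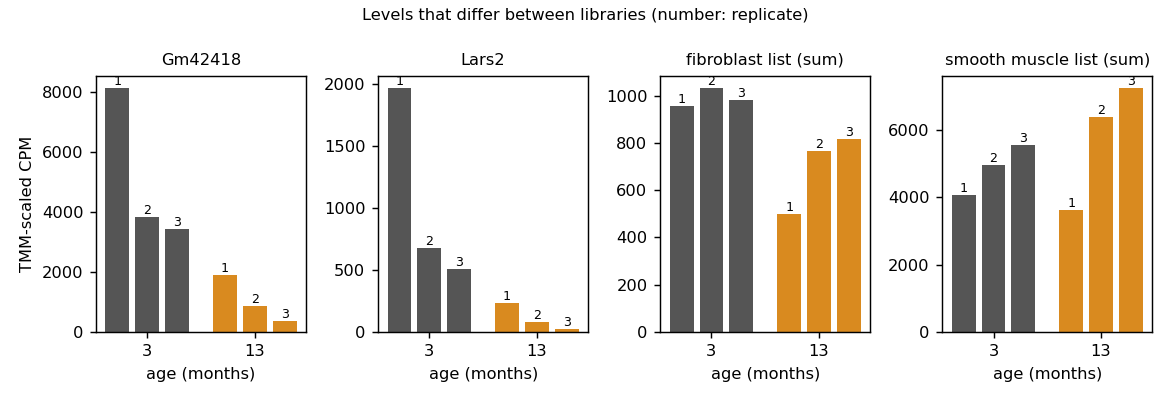
TMM-scaled CPM (vertical axes, from 0) per library at 3 and 13 months (horizontal axes, replicate number over each bar) for Gm42418, Lars2 and the summed fibroblast and smooth muscle lists. Replicate 1 at 3 months is highest for Gm42418 and Lars2, and replicate 1 at 13 months is lowest in both stromal sums.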

How the data were processed

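The authors deposited raw read counts per Ensembl gene, and HISAT2, featureCounts, GRCm38 and mm10 are named in the submitters' processing notes; versions, annotation, strand setting and treatment of multi-mapped reads are not given in the sources used here. RNA was total RNA extracted with TRIzol, per the labels. Symbols and positions came from GENCODE M21 by Ensembl identifier (53274 of 53379 matched; the other 105 held 0.00839% of counts). Promoters came from RefSeq (GRCm38.p6) by symbol, and the first window listed was taken.

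Genes were filtered with filterByExpr (minimum count 10, minimum total 15), scaled by TMM and tested with the quasi-likelihood test of edgeR 4.0.16 in R 4.3.3 on the 6 libraries, with Benjamini-Hochberg adjustment over 15135 genes. Residual degrees of freedom were 4, the prior ones 5.84 and the biological coefficient of variation 13.6%. Each SE was derived from the log2 fold change and its F statistic. Alternatives were DESeq2 1.42.0, limma-voom (limma 3.58.1), other scalings and filters, all 9 libraries, a replicate block and leaving out each library. The filter sets aside low genes, and a member at low level in one age passes through the other.

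The comparison, its gene lists and tests were chosen with earlier results of these data known. Named genes are the 15 largest called changes in each direction (non-overlapping ages, mean log2 CPM from 1 upwards), up to 8 called members of each list, up to 2 members of lists with no call, up to 10 called noncoding genes and genes fixed by name; not all are printed. Some genes and 1 list that the rule picks are not reported here.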

Additional observations from a re-analysis of the deposited data

Results flagged for a closer look

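Signals outside the comparison appeared in the 21-month libraries, which were not used in the fit; each list below exceeded 5 times the highest of the 6 compared libraries. Adipocyte genes summed to 473 CPM in replicate 1 and 3882 CPM in replicate 2 at 21 months, against 35.5 to 72.8 CPM in the 6 libraries. Prostate epithelium genes summed to 14740 CPM in replicate 1 at 21 months, against 1504 to 2681 CPM. This list holds Spink1, which is also in the list of seminal vesicle secretory proteins. In that library Pbsn was at 3586 CPM and Tgm4 at 9969 CPM, against at most 0.512 CPM in the 6 libraries. Epididymis and vas deferens genes summed to 719 CPM in the same library, against 1.75 to 4.41 CPM. With 3 libraries per age, single libraries were not tested as outliers.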

How the results depend on the processing

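The main fit called 235 genes, 63 higher and 172 lower. DESeq2 called 369 (115 higher), limma-voom 41 higher, no filter on low counts 867 (378 higher, 489 lower), at least 10 counts in all 6 libraries 124 (37 higher, 87 lower) and all 9 libraries 73 (7 higher, 66 lower). The share of higher genes was 26.8% in the main fit, 43.6% without the filter and 9.59% with all 9 libraries. Scaling by library totals moved the median of all genes to 0.07 and called 185. Leaving out 1 library gave 56 to 529 calls, 12 to 235 higher and 44 to 294 lower. After subtraction of each gene's mean at its age, log2 levels of same-numbered libraries of the 2 ages correlated at 0.281, 0.018 and 0.041. Those of differently numbered libraries correlated at -0.195 to 0.186. The numbers were not taken as pairs. The replicate block called 333 genes, 101 of them higher. Of the 235 genes 21 were called under all 15 alternatives and 54 under every left-out library. Genes that did not pass the test changed sign when 1 library was left out: Spink1 ranged from -0.31 to 0.038, Hba-a2 from -0.55 to 0.16, Alas2 from -0.34 to 0.069, Trp63 from -0.17 to 0.070, Dbp from -0.069 to 0.18, Fgfr2 from -0.14 to 0.23, Svs2 from -0.24 to 0.04 and Svs5 from -0.063 to 0.12. Fewer genes or libraries were tested where filters were stricter or libraries left out; otherwise the cause was not tested. At 16536160 to 24791943 counts per library, genes such as Ccnb1 rest on 2 to 4 counts at 13 months.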
